A study of Mus musculus with 40 samples.

Results

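The genes described here are those whose symbol in the deposited expression table is Mt1, Mt2, Hamp, Hfe, Trf, Tfrc or Ftl1. They are 7 of the 8 genes named for the set, among 17724 genes in the whole table. Fth1, the ferritin heavy chain gene, was not analysed here. All 7 passed the filter on low values, a mean normalized count of at least 10, as 13776 genes did.

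Liver RNA was sequenced from 40 mice of the strain C57BL/6NJ, 5 in each of 8 groups set by genotype, sex and diet. The d3 mice (d3/d3) were homozygous, in every cell, for a Ghr allele (growth hormone receptor) that lacks exon 3, in a line rederived by fertilizing C57BL/6NJ oocytes with sperm of d3/d3 males, and the WT mice carried no deletion. Mice were fed ad libitum (AL) or kept on 40% calorie restriction (CR), per the labels for 30 days from weaning at 30 days, which puts them at about 2 months. Another label field, on extraction, has them at 28 to 34 days. A total per gene does not show the loss of an exon, so the Ghr level checks no genotype label.

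Metallothioneins are small, cysteine-rich proteins that bind zinc and copper, and their genes are switched on by zinc through the metal-sensing factor MTF1, by glucocorticoids and in the acute phase response. Iron travels in blood on transferrin, enters cells through the transferrin receptor and is stored in ferritin. Hepcidin, the hormone made by Hamp in hepatocytes, lowers iron release into blood by removing the exporter ferroportin, and HFE is a membrane protein that acts upstream of it. Iron also acts on mRNA: iron regulatory proteins bind hairpins called iron responsive elements, which blocks translation of ferritin mRNA and protects transferrin receptor mRNA from decay.

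Mt1 (ENSMUSG00000031765) lies at chr8:94179082-94180327 and Mt2 (ENSMUSG00000031762) at chr8:94172664-94173568, both on the plus strand (GENCODE M21, GRCm38), with 6418 bases from start to start. The 250 bases before each RefSeq start are shown because they hold the letters of the metal response element (build GRCm38.p6, chr8:94178839-94179088 for Mt1 and chr8:94172368-94172617 for Mt2). Capitals mark each match on either strand to its core, TGCACNC or TGCGCNC.
Mt1: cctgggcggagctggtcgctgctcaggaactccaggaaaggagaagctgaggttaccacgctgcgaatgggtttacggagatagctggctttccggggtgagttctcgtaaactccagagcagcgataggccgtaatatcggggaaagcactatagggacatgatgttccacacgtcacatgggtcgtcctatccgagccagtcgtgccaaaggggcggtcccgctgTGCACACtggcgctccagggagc
Mt2: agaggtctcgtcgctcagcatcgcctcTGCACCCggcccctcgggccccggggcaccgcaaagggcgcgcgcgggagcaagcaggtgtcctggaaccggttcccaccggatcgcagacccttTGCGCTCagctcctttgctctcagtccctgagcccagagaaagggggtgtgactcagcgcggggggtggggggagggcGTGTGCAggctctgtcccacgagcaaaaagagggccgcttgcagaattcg
The Mt1 stretch holds 1 core match and the Mt2 stretch holds 3, against 21.4% of 32851 RefSeq promoter stretches of the same length with at least 1. Aligned over their length, the pair were 46.3% identical. The last 7 bases of the Mt1 stretch lie in an annotated exon. Other Mt1 transcripts start 122 and 152 bases after the RefSeq start, and the Mt2 transcripts in GENCODE start 46 and 242 bases after it. Between the GENCODE start and the start codon lie 4 core matches in the Mt1 transcript that starts first (229 bases searched) and 3 in that of Mt2 (184 bases searched). A match is a run of letters and shows no binding.

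Hamp (ENSMUSG00000050440) lies at chr7:30942368-30944032 on the minus strand, and its paralog Hamp2 (ENSMUSG00000056978) lies 19351 bases away, start to start. The 250 bases before the RefSeq starts of this pair are shown because the genes are neighbours and near-copies of which Hamp2 was called on CR and Hamp was not (chr7:30944030-30944279 for Hamp and chr7:30924182-30924431 for Hamp2, minus strand, GRCm38.p6). Capitals mark the core of the BMP response element, GGCGCC, and the STAT palindrome, TTCNNNGAA.
Hamp: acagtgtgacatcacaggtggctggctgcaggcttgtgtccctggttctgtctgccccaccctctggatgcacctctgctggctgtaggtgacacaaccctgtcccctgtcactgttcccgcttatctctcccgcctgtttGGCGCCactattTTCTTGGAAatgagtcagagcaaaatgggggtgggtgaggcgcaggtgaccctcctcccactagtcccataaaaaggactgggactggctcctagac
Hamp2: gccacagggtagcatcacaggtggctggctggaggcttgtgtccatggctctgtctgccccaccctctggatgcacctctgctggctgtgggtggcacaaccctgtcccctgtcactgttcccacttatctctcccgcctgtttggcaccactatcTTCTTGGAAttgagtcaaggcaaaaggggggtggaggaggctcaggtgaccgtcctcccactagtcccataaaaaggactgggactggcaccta
The pair were 89.7% identical over this length. The GGCGCC core occurs in the Hamp stretch and not in the Hamp2 stretch, and the STAT palindrome occurs in both. Of all promoter stretches, 9.59% hold the first motif and 7.02% the second, and neither presence nor absence of letters shows what binds there. The last 3 bases of the Hamp stretch lie in an annotated exon. The Hamp2 stretch lies inside the gene as GENCODE M21 gives it (chr7:30922372-30924681), after its GENCODE start, and overlaps none of its exons. The distance between the genes uses the GENCODE starts.

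The iron responsive elements are shown because they are where iron acts on Ftl1 and Tfrc mRNA. A search of the GENCODE transcripts for an unpaired C, 5 paired bases and the loop CAGTGN found 1 element in the 5′ UTR of Ftl1 and 4 in the 3′ UTR of Tfrc. Each is given as 27 bases with the loop in capitals (GRCm38; Ftl1 on chr7 at 45459780 to 45459806, minus strand, and Tfrc on chr16 between 32631220 and 32631737, plus strand).
Ftl1 element: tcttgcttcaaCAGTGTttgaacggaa
Tfrc element 1: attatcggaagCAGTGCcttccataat
Tfrc element 2: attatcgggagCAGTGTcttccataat
Tfrc element 3: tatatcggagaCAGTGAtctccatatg
Tfrc element 4: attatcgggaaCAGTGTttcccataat

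Each library held 21132490 to 44195300 reads, with a median of 36347580, in the genes listed. Albumin (Alb) stood between 1472824 and 4016941 normalized counts in all 40 livers, and the mean log2 level of 8 hepatocyte markers, of 10 listed, ran from 16.31 to 17.66. A skeletal muscle level, the mean of log2(normalized count + 1) over 16 muscle markers, ran from 0.96 to 16.48, and 17 libraries with a level of at least 8 are called muscle-rich below. Each group held 1 to 3 of them. In WT AL male replicate 5, itself muscle-rich, the exocrine pancreas level was 12.47, against at most 7.49 in the other libraries.

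**Figure D1:**
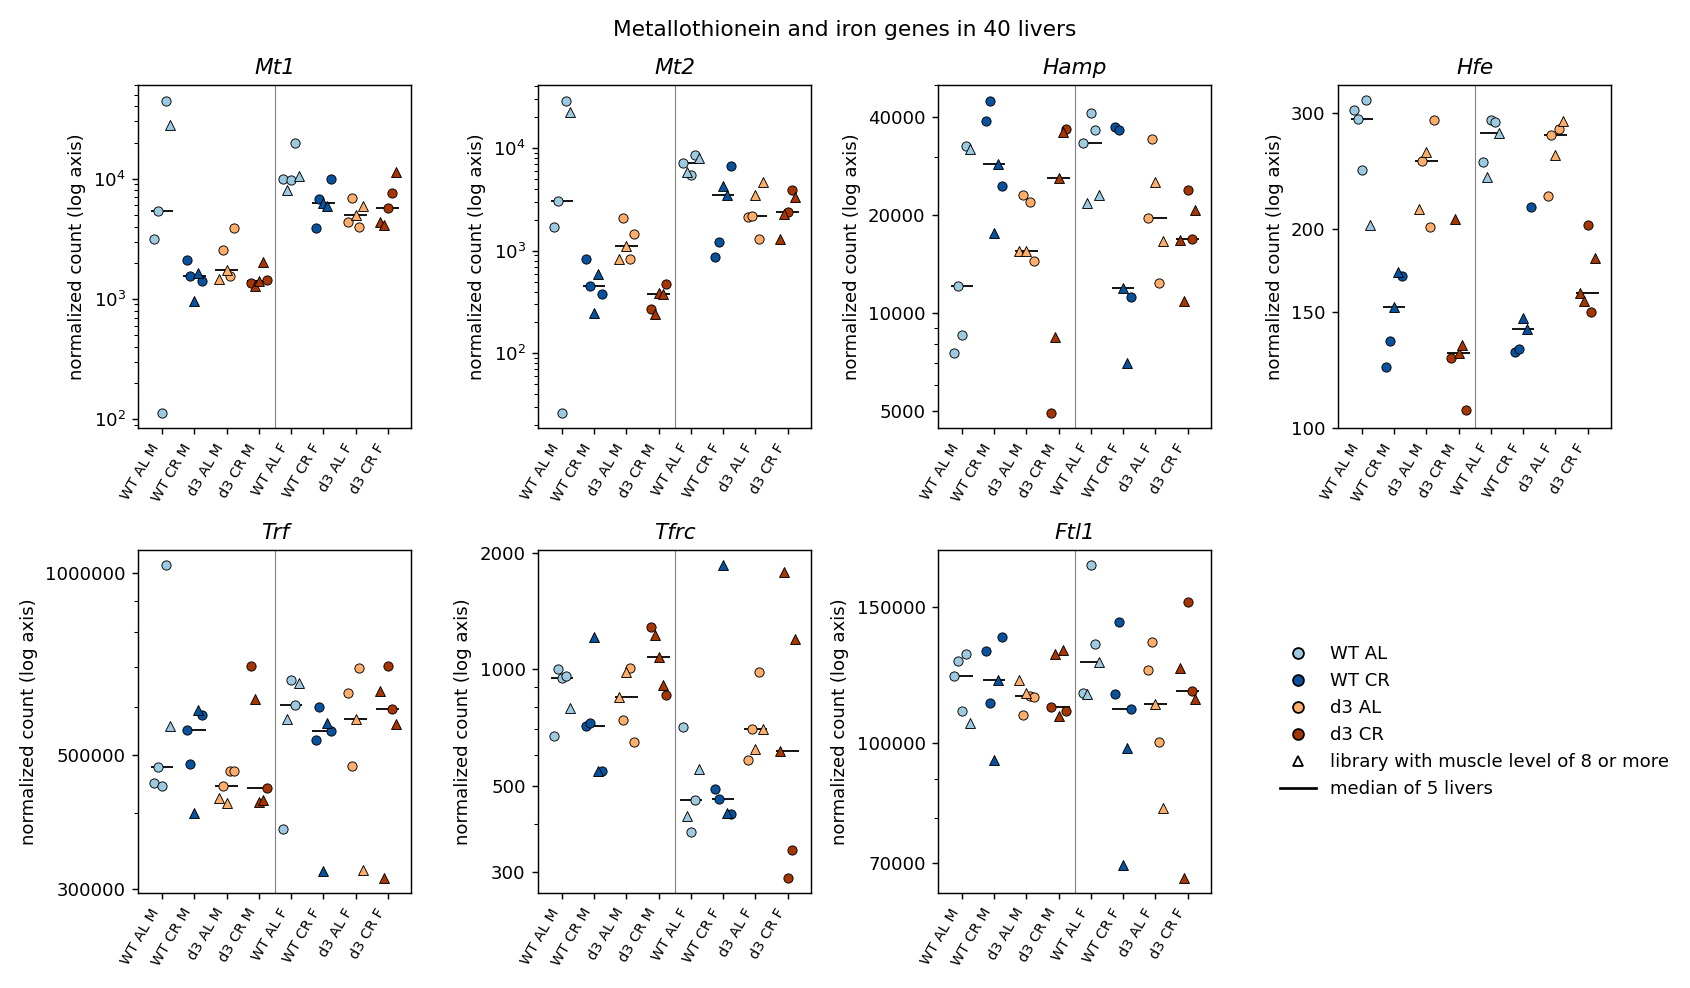
Normalized counts (log axis) of the 7 genes in each of 40 livers, by group; points are livers, triangles are muscle-rich libraries and bars are medians of 5. Hfe lies lower in the CR groups of both genotypes and sexes, Mt1 and Mt2 lie lower in CR males than in CR females, and Mt1 in WT AL males runs from 113 to 44816.

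Hfe was the only member that passed the test in any of 12 pairwise comparisons or 6 interactions, and it fell on CR in all 4 diet comparisons. Its product binds the transferrin receptors and takes part in the signal that raises hepcidin; its loss gives iron overload in mouse and human. In WT males the level stood at 303, 294, 246, 313 and 203 normalized counts on AL and at 124, 135, 153, 172 and 170 on CR. In WT females it stood at 253, 240, 293, 291 and 279 on AL and at 130, 132, 147, 141 and 216 on CR. In neither case did the groups overlap, and among WT CR females replicate 5, at 216, stood apart from the other 4.

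The Hfe difference on CR was -0.84 ± 0.15 (log2, SE, n = 5 and 5, adjusted p = 9.43e-05, limma) in WT males, and the CR level was 0.559 times the AL level. It was -0.84 ± 0.15 in WT females (adjusted p = 0.000222), with a CR level 0.558 times the AL level. Bulk liver cannot tell fewer cells of a type from less RNA per cell.

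In d3 males Hfe stood at 215, 253, 262, 202 and 293 on AL and at 128, 207, 130, 134 and 107 on CR. Only replicate 2 of the CR group, at 207, reached into the AL range. In d3 females it stood at 225, 278, 259, 284 and 291 on AL and at 160, 156, 203, 150 and 181 on CR, without overlap. The differences were -0.81 ± 0.15 for males (adjusted p = 0.000139) and -0.65 ± 0.15 for females (adjusted p = 0.00224).

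Of the 7 members, 1 was called in each diet comparison. Among all genes tested the share called was 21.5% for WT males, 11.7% for WT females, 19.5% for d3 males and 17.9% for d3 females, so the number of members called lies near the background. Called lower were 11.4%, 7.11%, 10.5% and 9.55% of genes in that order. Groups did not overlap for Hfe in WT males, where 14.2% of genes had no overlap, in WT females (9.64%) and in d3 females (10.3%), and they did not overlap for Mt2 in d3 males (16.3%).

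Group medians of Hfe ran, from the highest, through WT AL males (294), WT AL females (279), d3 AL females (278) and d3 AL males (253) to d3 CR females (160), WT CR males (153), WT CR females (141) and d3 CR males (130). Every AL median lay above every CR median, though the ranges of all neighbours in this order overlapped. Neither sex nor genotype moved Hfe past the test: the differences lay between -0.30 and 0.17 in the 8 comparisons, and the interactions between -0.29 and 0.19. The fall stayed called in each of 10 fits per comparison that left out 1 library, from -0.97 to -0.61 over the 4 comparisons. Without the muscle-rich libraries the fall in d3 females was -0.58 (adjusted p = 0.12), no longer called. Hfe counts rest on 114 to 392 reads per library. The running numbers in the sample titles, whose meaning is not given, do not overlap between the diets in d3 males nor in d3 females, so there diet cannot be told apart from their order.

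Macrophage and Kupffer cell markers, 12 of 12 of them measured, had medians below those of all genes, and so had hepatocyte markers. The macrophage list's median difference on CR was -0.33 for WT males, -0.52 for WT females, -0.49 for d3 males and -0.68 for d3 females, with 0, 1, 1 and 3 of 12 called lower. The Kupffer cell marker Clec4f fell in WT females (-0.87 ± 0.27, adjusted p = 0.0343), d3 males (-0.98 ± 0.27, 0.00955) and d3 females (-0.78 ± 0.27, 0.0445). The summed count of the list ran from 7463 to 12718 in WT AL males against 5597 to 11943 in WT CR males, and from 11768 to 15862 in WT AL females against 5706 to 18407 in WT CR females. It ran from 7130 to 11364 in d3 AL males against 4619 to 10717 in d3 CR males, and from 9332 to 15245 in d3 AL females against 4165 to 14701 in d3 CR females. Hepatocyte markers, 8 of 10 measured, had medians of -0.15, -0.46, -0.42 and -0.24 in the order WT males, WT females, d3 males, d3 females, with 2, 1, 2 and 1 of 8 called lower. Their summed count ran, AL against CR in that order, from 2702523 to 3852005 against 3052715 to 4658612, from 3959695 to 5069824 against 1917266 to 4012558, from 2825092 to 3595287 against 2693624 to 4236673 and from 2809518 to 4925432 against 1997800 to 4444362. None of the markers of either list was at 0 in all livers, and their part in the Hfe result was not tested.

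**Figure D2:**
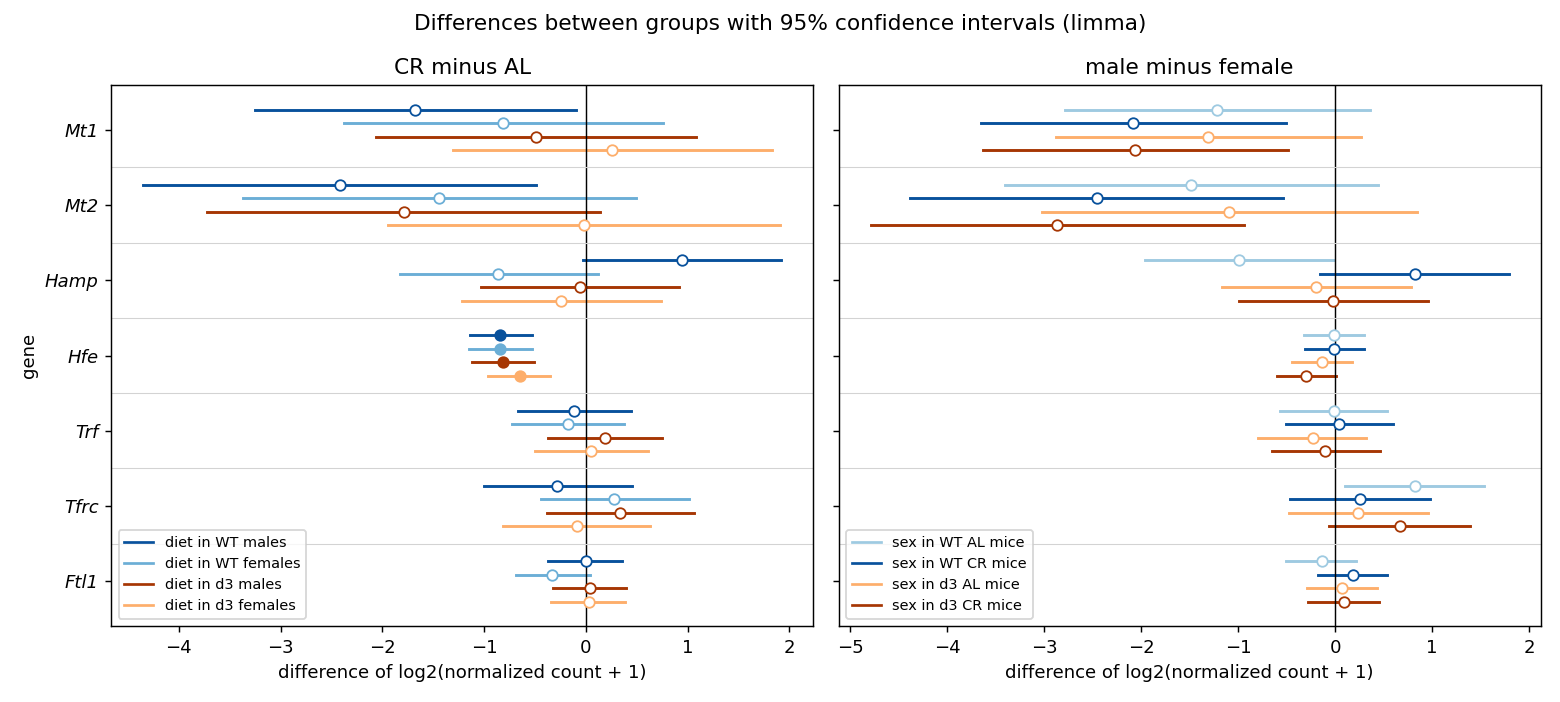
Difference of log2(normalized count + 1) between groups for the 7 genes, CR minus AL (left) and male minus female (right); bars are 95% confidence intervals from limma and filled points passed an adjusted p of 0.05. Only Hfe on CR has filled points, from -0.84 to -0.65, and the intervals of Mt1 and Mt2 are the widest.

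The metallothionein genes varied widely within 1 group, WT AL males. Over all groups the within-group SD of the log2 level was 1.28 for Mt1 and 1.57 for Mt2, at the 93.8 and 95.4 percentiles of the genes tested, whose median was 0.302. Without WT AL male replicate 3 it was 0.725 and 0.921, at the 84.3 and 89.5 percentiles, and without all WT AL males 0.468 and 0.698, at the 70.1 and 83.9 percentiles, both chosen after seeing the data. In WT AL males Mt1 stood at 3137, 5420, 113, 44816 and 27952 normalized counts and Mt2 at 1691, 3051, 26, 29152 and 22561. Replicate 3 was far below all other 39 livers for both genes, with 60 reads for Mt1 and 14 for Mt2, and replicates 4 and 5 were above all others.

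Acute phase proteins, which the liver secretes during inflammation, were high in the same pair of livers. The acute phase level, the mean log2 level over 14 of 16 listed genes, was 15.98 in replicate 4 and 13.91 in replicate 5, against 11.82 to 12.03 in replicates 1, 2 and 3. Serum amyloid A1 (Saa1) stood at 370496 in replicate 4 and 42744 in replicate 5, against 815 to 2111 in the other 3 WT AL males. Replicate 5 of the WT AL males was also muscle-rich and had an exocrine pancreas level of 12.47, above all other libraries. In d3 AL males, replicate 5 had an acute phase level of 13.89 and 50731 counts of Saa1, with 3870 of Mt1, the highest of that group. Mt2 in that liver, at 1457, lay below replicate 2, at 2065, where Saa1 stood at 4620. Replicate 3 of the WT AL males, where both metallothioneins were lowest, had an acute phase level of 11.84. The part of this response in the metallothionein results was not tested.

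In the other male groups Mt1 was lower and closer together. It stood at 2130, 1555, 956, 1636 and 1405 in WT CR males, at 1474, 2543, 1735, 1556 and 3870 in d3 AL males and at 1354, 1281, 1403, 2049 and 1426 in d3 CR males. Mt2 stood at 825, 458, 249, 595 and 376 in WT CR males, at 830, 2065, 1111, 826 and 1457 in d3 AL males and at 270, 244, 384, 380 and 477 in d3 CR males. For Mt2 all d3 AL males lay above all d3 CR males.

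The diet difference in WT males was -1.68 ± 0.77 for Mt1 (adjusted p = 0.123) and -2.42 ± 0.95 for Mt2 (adjusted p = 0.0651), neither called by limma. Both values turned on which WT AL males were kept. Without replicate 3, the lowest liver, they were -3.02 (adjusted p = 1.29e-05) and -4.04 (adjusted p = 5.27e-06). Without replicates 4 and 5, the highest, they were 0.26 (adjusted p = 0.821), with the sign turned, and -0.17 (adjusted p = 0.913). The choice of this pair was made after seeing the data. Without the muscle-rich libraries they were -0.87 (adjusted p = 0.651) and -1.44 (adjusted p = 0.51). With all livers, edgeR on recovered reads called Mt1 at -3.41 (adjusted p = 0.000291) and Mt2 at -4.50 (adjusted p = 0.000123), where it called 21.6% of all genes. In d3 males Mt2 differed by -1.79 ± 0.95 (adjusted p = 0.19), called with the groups fitted alone (adjusted p = 0.00112; 21.8% of genes called) and by DESeq2 (-1.84, adjusted p = 0.0441; 21.1% of genes) but not by edgeR (adjusted p = 0.0765).

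In females Mt1 stood at 9918, 8114, 9749, 19831 and 10523 in WT AL mice and at 3900, 6743, 6318, 5901 and 10009 in WT CR mice. It stood at 4402, 6904, 5027, 3983 and 5954 in d3 AL mice and at 4398, 4123, 5694, 7627 and 11307 in d3 CR mice. The diet differences, -0.81 ± 0.77 in WT and 0.26 ± 0.77 in d3 females, were not called. Mt2 stood at 7220, 5884, 5466, 8528 and 8083 in WT AL females and at 876, 1222, 4291, 3518 and 6743 in WT CR females. It stood at 2157, 2197, 3491, 1316 and 4642 in d3 AL females and at 1304, 2290, 2410, 3951 and 3357 in d3 CR females. Its diet differences were -1.44 ± 0.95 and -0.02 ± 0.95, also not called, and in each case the diets overlapped.

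On CR, females and males did not overlap for either metallothionein in either genotype. Mt1 was at 3900 to 10009 in WT CR females against 956 to 2130 in WT CR males, and at 4123 to 11307 in d3 CR females against 1281 to 2049 in d3 CR males. Mt2 was at 876 to 6743 against 249 to 825 in WT and at 1304 to 3951 against 244 to 477 in d3 mice. Among all genes tested, 6.06% did not overlap between the sexes in WT CR mice and 5.47% in d3 CR mice. In AL mice only Mt1 in d3 mice did not overlap (7.87% of genes; 5.57% in WT AL mice, where no member was apart).

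Under limma 0 of 7 members were called between the sexes in any of the 4 comparisons, where 6.48% of genes were called in WT AL, 4.57% in WT CR, 6.16% in d3 AL and 8.81% in d3 CR mice. At an unadjusted p under 0.05 there were 2, 2, 0 and 2 members in the same order, against 19.3%, 19%, 19.7% and 23.9% of all genes. The male minus female difference of Mt1 was -2.08 ± 0.77 in WT CR mice (adjusted p = 0.122) and -2.06 ± 0.77 in d3 CR mice (adjusted p = 0.0895). For Mt2 it was -2.46 ± 0.95 (adjusted p = 0.137) and -2.87 ± 0.95 (adjusted p = 0.0519).

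These sex differences on CR passed in some other fits and not in others. The fit over all 8 groups shares the spread of WT AL males with every group, and with the 2 CR groups fitted alone the adjusted p was 0.00129 (WT) and 0.00535 (d3) for Mt1 and 0.0385 and 0.000912 for Mt2. With edgeR it was 0.0499 and 0.029 for Mt1 and 0.0294 and 0.0145 for Mt2, and DESeq2 called the same 4 differences. The shares of all genes called in WT CR and d3 CR mice were 2.77% and 0.726% in the fits of the groups alone, 4.14% and 9.63% with edgeR and 6.32% and 12.3% with DESeq2. Without the muscle-rich libraries none of the 4 passed, at -1.94 (WT, adjusted p = 0.601) and -2.24 (d3, 0.377) for Mt1 and -1.89 (0.692) and -3.10 (0.306) for Mt2. With the muscle level as a covariate only Mt2 in d3 mice passed (adjusted p = 0.0471), against 0.103 and 0.0802 for Mt1 and 0.109 for Mt2 in WT mice. In AL mice edgeR and DESeq2 called 0 members between the sexes, where edgeR called 7.12% of genes in WT and 6.16% in d3 mice and DESeq2 8.81% and 7.64%. There the male minus female difference in WT mice was -1.22 ± 0.77 for Mt1 and -1.49 ± 0.95 for Mt2. It became 0.13 and 0.14 without WT AL male replicate 3. Without replicates 4 and 5 it was -3.15 (limma, adjusted p = 0.00124) and -3.74 (adjusted p = 0.00329), with 4.94% of all genes called. These livers had the highest values of both genes and were left out after seeing the data. Their removal lowers the male mean, so these p-values cannot decide a sex difference. In d3 AL mice Mt1 differed by -1.31 ± 0.77 (adjusted p = 0.362), called with the groups fitted alone (adjusted p = 0.014; 5.89% of genes).

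Group medians of Mt1 ran from WT AL females (9918) through WT CR females (6318), d3 CR females (5694), WT AL males (5420) and d3 AL females (5027) to d3 AL males (1735), WT CR males (1555) and d3 CR males (1403). Between d3 AL females and d3 AL males the ranges did not overlap; all other neighbours did. For Mt2 the order was WT AL females (7220), WT CR females (3518), WT AL males (3051), d3 CR females (2410), d3 AL females (2197), d3 AL males (1111), WT CR males (458) and d3 CR males (380). Its neighbours overlapped except d3 AL males, from 826, and WT CR males, up to 825.

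Mt1 and Mt2 moved together from liver to liver. With each liver set against its group mean, Pearson's r was 0.95 and Spearman's rho 0.79 over 40 livers (p = 1e-05 each, the smallest that 1e+05 permutations within groups can give; adjusted p = 0.00021 over 21 member pairs). Without WT AL male replicates 3 and 4, the pair farthest from the median, r was 0.82. The genes most like them by this measure were Rsc1a1 (0.79), Sox9 (0.78) and Lcn2 (0.77) for Mt1 and Plxnb1 (0.80), S100a9 (0.79) and Rsc1a1 (0.77) for Mt2. Lcn2 encodes an iron-siderophore carrier of the acute phase and S100a9 a zinc-binding protein of neutrophils; both values are descriptions over 40 livers with no test.

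The balance of the pair shifted toward Mt1 in d3 males on CR. The running title numbers do not overlap between these groups. For this ratio, and for Mt2 in d3 males above, diet thus cannot be told apart from their order. The ratio of Mt1 to Mt2 counts was 1.78, 1.23, 1.56, 1.88 and 2.66 in d3 AL males and 5.01, 5.24, 3.66, 5.39 and 2.99 in d3 CR males. All 5 CR ratios lay above all 5 AL ratios, and the log2 ratio was 1.30 higher on CR, 2.46-fold (exact 2-sided permutation test, p = 0.00794, the smallest that 252 splits allow; adjusted p = 0.0317 over 4 comparisons). Without the muscle-rich libraries, which leaves 3 AL and 2 CR livers and no test that can pass, the difference was 1.08 (adjusted p = 0.3). Leaving out d3 AL male replicate 2 or d3 CR male replicate 1, 2 or 4 gave differences of 1.17 to 1.25. The adjusted p of the same test was then 0.0635, not called. All CR ratios kept still lay above all AL ratios kept. The fits that left out any other liver of these groups stayed called.

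In WT males the ratio was 1.85, 1.78, 4.29, 1.54 and 1.24 on AL and 2.58, 3.39, 3.85, 2.75 and 3.73 on CR. Replicate 3 on AL, with the low levels above, stood above all CR males, and the difference was 0.74 (exact permutation test, p = 0.0635, adjusted p = 0.127). Without that liver it was 1.02 (adjusted p = 0.0159). The differences in females were 0.63 in WT (adjusted p = 0.296) and 0.28 in d3 mice (adjusted p = 0.413), with overlapping ratios of 1.28 to 5.52 in all female groups.

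**Figure D3:**
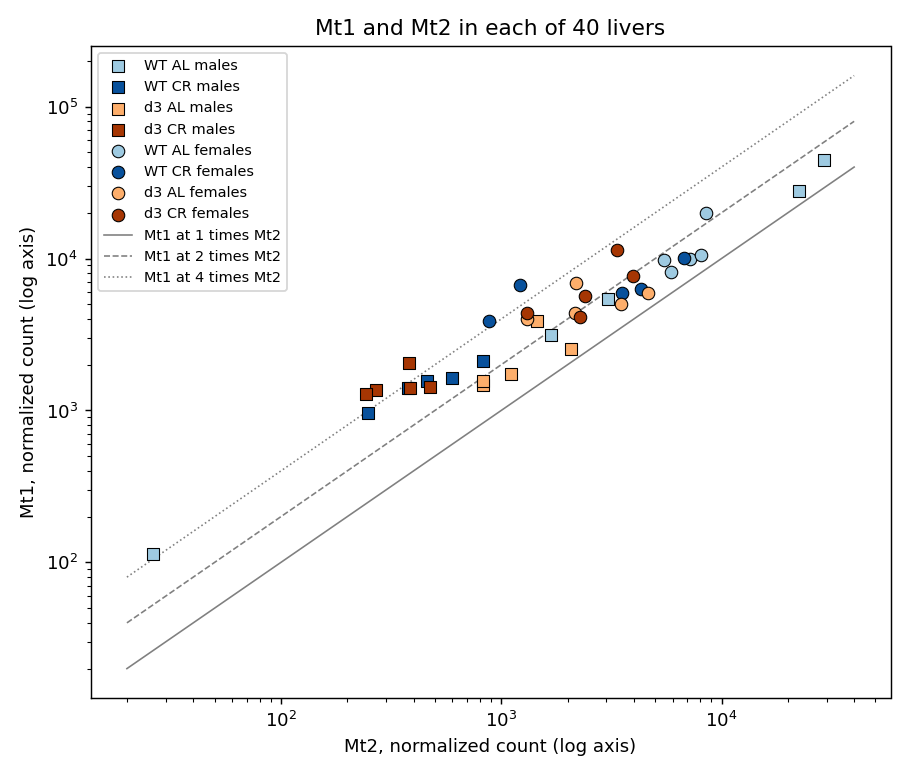
Mt1 against Mt2 in each liver, both as normalized counts on log axes; squares are males, circles females, and the lines mark Mt1 at 1, 2 and 4 times Mt2. The d3 CR males lie near the line for 4 times, at ratios of 2.99 to 5.39, and WT AL males span both ends of the plot.

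Hamp, the hepcidin gene, was highly expressed and uneven between livers, from 4935 to 44851 normalized counts, and no diet comparison called it. In WT males it stood at 7528, 12080, 8545, 32543 and 31899 on AL and at 38762, 44851, 17551, 28713 and 24458 on CR. Its high AL values were those of replicates 4 and 5, the livers with the high acute phase levels. In WT females it stood at 33210, 21717, 40990, 36539 and 23039 on AL and at 37304, 36433, 11917, 6998 and 11198 on CR.

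The Hamp difference on CR was 0.95 ± 0.48 in WT males (adjusted p = 0.166) and -0.86 ± 0.48 in WT females (adjusted p = 0.261). These changes differed by 1.80 ± 0.68 between the sexes (unadjusted p = 0.0118, adjusted p = 0.285, limma), which did not pass. Without WT AL male replicates 4 and 5 the difference in WT males was 1.67 (limma, adjusted p = 0.0211). WT AL males then stood 1.71 below WT AL females on the log2 scale (adjusted p = 0.044). Of all genes, 17.7% and 4.94% were called in these 2 comparisons. The livers left out had the highest Hamp of their group and were chosen after seeing the data. Their removal lowers the mean of WT AL males, so these p-values decide neither difference.

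In d3 males Hamp stood at 15530, 23001, 15521, 21861 and 14428 on AL and at 4935, 8448, 25966, 35977 and 36712 on CR, where 2 livers were below and 3 above every AL liver. In d3 females it stood at 19610, 34204, 25187, 12380 and 16667 on AL and at 16688, 10900, 23810, 16865 and 20739 on CR. The differences were -0.06 ± 0.48 and -0.24 ± 0.48. Medians ran from WT AL females (33210), WT CR males (28713), d3 CR males (25966), d3 AL females (19610), d3 CR females (16865), d3 AL males (15530) and WT AL males (12080) to WT CR females (11917), and all neighbours overlapped. Srm, Tkfc and Thrsp were most like Hamp, each at r = 0.72 over 40 livers.

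Hamp2, the neighbouring paralog, rose on CR in 3 of 4 comparisons; whether its change differed from that of Hamp was not tested. It stood at 169 to 598 in WT AL males and 2710 to 3999 in WT CR males, and at 230 to 612 in d3 AL males and 3892 to 5731 in d3 CR males. The differences were 3.43 ± 0.42 (adjusted p = 1.53e-07) and 3.64 ± 0.42 (adjusted p = 4.35e-08). In d3 females the difference was 1.92 ± 0.42 (adjusted p = 0.00133), and in WT females it was 1.15 ± 0.42 (adjusted p = 0.0676). Hamp2 was lower in males in all 4 sex comparisons, by 4.34 in WT AL, 2.07 in WT CR, 3.53 in d3 AL and 1.81 in d3 CR mice on the log2 scale. The transcripts are near-identical in part, and kallisto shares such reads by estimation, so the split between Hamp and Hamp2 is uncertain.

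Trf, which makes transferrin, the iron carrier of plasma, stood between 312951 and 1030209 normalized counts and was not called in any comparison. Its diet differences were -0.12 ± 0.27 for WT males, -0.17 ± 0.27 for WT females, 0.19 ± 0.27 for d3 males and 0.05 ± 0.27 for d3 females. The highest liver was WT AL male replicate 4 at 1030209, above 444550 to 557280 in the other 4 of its group. The lowest were d3 CR female replicate 2 at 312951 and WT CR female replicate 3 at 320647, both muscle-rich. Medians ran from 439973 in d3 CR males to 604083 in WT AL females, and all neighbours in that order overlapped. Cfi (0.96), Cfb (0.94) and Kng1 (0.93), genes of complement and kinin proteins that the liver secretes, were most like Trf.

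Ftl1, the ferritin light chain, was the steadiest member for the range over livers, 2.54-fold from 66966 to 170032, and no comparison called it. Its diet differences were -0.00 ± 0.18 for WT males, -0.33 ± 0.18 for WT females (adjusted p = 0.248), 0.04 ± 0.18 for d3 males and 0.03 ± 0.18 for d3 females. Medians lay between 110694 in WT CR females and 127470 in WT AL females. The lowest livers were again d3 CR female replicate 2 (66966) and WT CR female replicate 3 (69568). Ftl1 has near-identical pseudogene copies in the table, so its level is uncertain to the extent that reads were shared. Akr7a5, Eefsec (0.92 each) and Apoe (0.91) were most like it.

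Tfrc, the transferrin receptor, was higher in males by medians in every pair but not called. Levels were 673, 1002, 953, 959 and 796 in WT AL males and 709, 417, 380, 460 and 554 in WT AL females. The male minus female difference there was 0.82 ± 0.36 (limma, adjusted p = 0.183). It was called with these groups fitted alone (adjusted p = 0.0263), where 3.3% of all genes were called. In d3 CR mice levels were 1287, 1230, 1074, 910 and 857 in males and 617, 1785, 290, 341 and 1201 in females, a difference of 0.67 ± 0.36 (adjusted p = 0.25).

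The remaining groups overlapped on Tfrc. WT CR males stood at 716, 726, 1214, 546 and 545 and WT CR females at 492, 463, 1859, 427 and 422. In d3 AL mice, males stood at 847, 742, 986, 1008 and 651 and females at 583, 704, 624, 986 and 704. The diet differences ran from -0.28 to 0.34, and none was called. Medians ran from d3 CR males (1074), WT AL males (953), d3 AL males (847) and WT CR males (716) to d3 AL females (704), d3 CR females (617), WT CR females (463) and WT AL females (460), with overlap between all neighbours.

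High Tfrc values in CR females fell in muscle-rich libraries. WT CR female replicate 3, at 1859, had a muscle level of 14.12; d3 CR female replicates 2 and 5, at 1785 and 1201, had levels of 16.48 and 12.54. All 16 muscle markers had a row, and their summed count ran from 56 to 871340 in WT CR females and from 103 to 2283989 in d3 CR females, against 54 to 192985 in WT AL females and 64 to 170932 in d3 AL females. In WT males it ran from 34 to 81226 on AL and 65 to 471262 on CR, and in d3 males from 44 to 264160 and 44 to 244777. Without the muscle-rich libraries limma called Tfrc lower on CR in d3 females (-1.23, adjusted p = 0.0108). It was called higher in males in WT AL (0.83, adjusted p = 0.0308) and d3 CR mice (1.74, adjusted p = 0.00333). Of all genes, 7.56%, 6.79% and 7.12% were called there in that order. These fits leave 23 libraries, 2 of them d3 CR females.

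**Figure D4:**
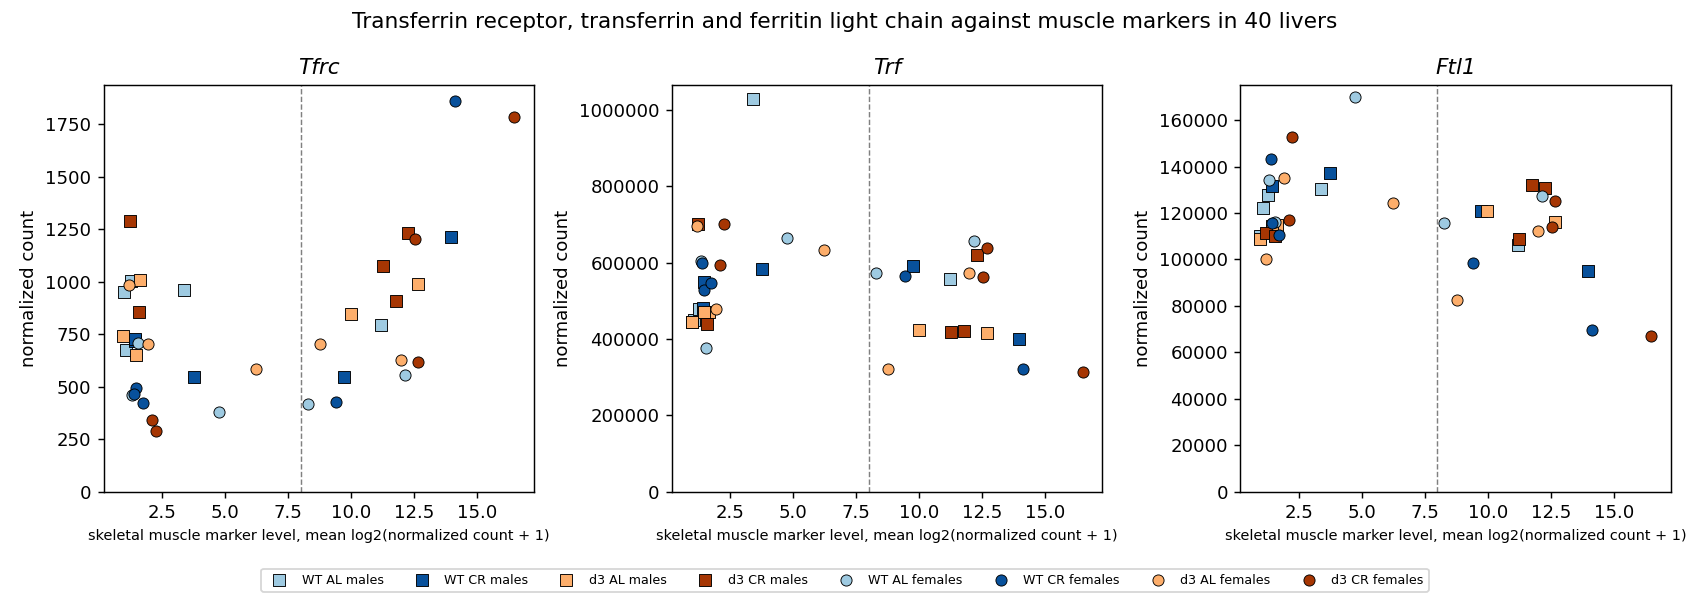
Tfrc, Trf and Ftl1 (normalized counts) against the skeletal muscle level (mean log2 level of 16 markers) in 40 livers; the dashed line is the level of 8 above which libraries are called muscle-rich. The 2 libraries with the highest muscle levels, 14.12 and 16.48, have the highest Tfrc, 1859 and 1785, and the lowest Ftl1, 69568 and 66966.

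Within groups Tfrc ran against Ftl1 (r = -0.69, rho = -0.50, permutation adjusted p = 0.0042 and 0.0221), and Trf ran with Ftl1 (r = 0.66, rho = 0.55, adjusted p = 0.0022 and 0.0151). In the 23 libraries that were not muscle-rich these values of r were -0.57 and 0.38. Leaving out the 2 livers farthest from the median gave -0.47 and 0.61. Trf and Tfrc had r = -0.47 (adjusted p = 0.0439) but rho = -0.34 (adjusted p = 0.146), and r = -0.17 without the muscle-rich libraries. Golga4 (0.87), Etl4 (0.87) and Clasp1 (0.86), the genes most like Tfrc, had r of 0.59, 0.40 and 0.23 to it in those 23 libraries. For Hfe the likest genes, Zfp358 (0.60), Rab13 (0.59) and Btbd6 (0.59), were less close.

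No member was called for genotype: 0 of 7 passed limma in each of 4 comparisons, where 0.0436% of genes were called in AL males, 0% in AL females, 0.138% in CR males and 0% in CR females. At an unadjusted p under 0.05 there were also 0 of 7 in each, against 8.14%, 6.35%, 8.03% and 7.45% of all genes in that order. Both counts lie near the background. In AL females the genotypes did not overlap for Mt1, at 3983 to 6904 in d3 against 8114 to 19831 in WT mice, nor for Mt2, at 1316 to 4642 against 5466 to 8528; 1.21% of genes did not overlap there. No member was apart in AL males (1.43% of genes), CR males (1.36%) or CR females (1.19%). In AL females the limma differences were -1.10 ± 0.77 for Mt1 (adjusted p = 0.809) and -1.46 ± 0.95 for Mt2 (adjusted p = 0.793). In CR males the running title numbers do not overlap between the genotypes, so there genotype cannot be told apart from their order.

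In AL males the d3 minus WT difference was -1.19 ± 0.77 for Mt1 (adjusted p = 0.753) and -1.07 ± 0.95 for Mt2 (adjusted p = 0.847). The authors' deposited table gives Mt1 a log2 fold change of -2.94 with an adjusted p of 0.00133 in this comparison. It gives Mt2 -0.90 with no adjusted p, and it calls no other member in any of its 4 comparisons. DESeq2 on recovered reads called both (Mt1 -2.86, adjusted p = 0.00208, and Mt2 -3.17, adjusted p = 0.00505), with 0.379% of genes called. With edgeR 0 members and 0.109% of genes were called. Without WT AL male replicate 3 limma called Mt1 (-2.54, adjusted p = 0.0153), and without replicate 4 the difference was -0.38 (adjusted p = 0.974). Without replicates 4 and 5, the livers with the high acute phase levels, the sign turned, to 0.74 for Mt1 (adjusted p = 0.897) and 1.18 for Mt2 (adjusted p = 0.864). The choice of this pair was made after seeing the data.

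The interactions called 0 of 7 members under limma. At an unadjusted p under 0.05 there was 1 member, Hamp for diet by sex in WT mice, where 11.2% of all genes were. That share ran from 4.04% to 16.4% over the 6 interactions. With edgeR 0 members were called, against 0% to 2.19% of genes. DESeq2 called 1, Mt2 for diet by sex in WT mice (-3.42, adjusted p = 0.0496), where it called 1.16% of genes. Among all genes 0.348% were called for diet by sex in WT and 2.09% in d3 mice, 0.0218% and 0% for diet by genotype in males and females, and 0% and 0.0145% for genotype by sex in AL and CR mice.

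Some genes around the members were called on CR. The lists below were chosen with earlier results of these data known. To set beside every list count, all tested genes were called, in either direction, at 21.5% in WT males and 11.7% in WT females. The share was 19.5% in d3 males and 17.9% in d3 females. In WT males 2 of 18 tested genes of hepcidin control rose and 4 fell, and the numbers were 0 and 1 for WT females, 1 and 1 for d3 males and 1 and 1 for d3 females, with list medians between -0.07 and -0.03 against 0.02 to 0.04 for all genes. Atoh8, a transcription factor of the BMP pathway, fell in WT males (-0.83 ± 0.24, adjusted p = 0.0114), WT females (-0.84 ± 0.24, 0.0206) and d3 males (-0.90 ± 0.24, 0.00736). Hemojuvelin (Hjv), a BMP co-receptor, fell in WT males (-0.85 ± 0.31, adjusted p = 0.0475), and so did the receptor Bmpr1a (-0.52 ± 0.15, 0.0103) and Stat3 (-0.77 ± 0.18, 0.0022). Tfr2, the iron-sensing partner of HFE, was not called, with differences of -0.43 to -0.21.

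In WT males 3 of 20 tested genes of iron uptake, storage and export rose and 7 fell, and the numbers were 1 and 6 for WT females, 3 and 3 for d3 males and 0 and 3 for d3 females. Mitoferrin 1 (Slc25a37), which carries iron into mitochondria, rose in WT males (0.99 ± 0.13, adjusted p = 5.73e-07), WT females (0.60 ± 0.13, 0.00173) and d3 males (0.80 ± 0.13, 1.94e-05). Haptoglobin (Hp), which binds free hemoglobin, fell in the same 3 (-1.41, -1.22 and -0.95). Ceruloplasmin (Cp), a copper ferroxidase, fell in WT males (-0.72), WT females (-0.72) and d3 females (-0.77). Hp, Cp and Lcn2 are acute phase proteins as well; Lcn2 fell in WT males (-3.61 ± 0.94, adjusted p = 0.00482) and WT females (-2.96 ± 0.94, 0.0337).

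In WT males 5 of 15 tested heme genes rose and 1 fell, and the numbers were 2 and 1 for WT females, 3 and 1 for d3 males and 1 and 0 for d3 females. Alas1, the rate-limiting enzyme of heme synthesis in liver, rose in WT males (1.95 ± 0.47, adjusted p = 0.00259) and d3 males (1.33 ± 0.47, 0.0435); in females the differences were 0.75 and 0.34, not called. Alad, the next enzyme, rose in the same males (0.69 and 0.59), and Blvra, which reduces biliverdin, rose in them too (0.59 and 0.38). Uros fell in both (-0.50 and -0.65).

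In WT males 1 of 20 tested zinc and copper genes rose and 2 fell, and the numbers were 0 and 1 for WT females, 3 and 2 for d3 males and 1 and 4 for d3 females. Slc30a10, a member of the zinc transporter family known as a manganese exporter, fell in all 4 comparisons: -2.09 ± 0.20 for WT males (adjusted p = 1.14e-09), -1.38 ± 0.20 for WT females (1.18e-05), -1.59 ± 0.20 for d3 males (3.49e-07) and -1.92 ± 0.20 for d3 females (2.27e-08). The copper pump Atp7a fell in WT males (-0.71) and d3 females (-0.98), and Commd1, which takes part in copper export, rose in these (0.35 and 0.44).

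In WT males 0 of 14 tested acute phase genes rose and 10 fell, and the numbers were 0 and 3 for WT females, 1 and 4 for d3 males and 0 and 1 for d3 females. The count in WT males was 1 with the groups fitted alone and 1 without the muscle-rich libraries, WT AL male replicate 5 among them. Of all genes, 17.1% and 18.2% were called in these fits. Lbp, which binds bacterial lipopolysaccharide, fell in all 4 (-1.45, -0.99, -1.29 and -0.80). Without the muscle-rich libraries the counts called in WT females, in either direction, went from 7 to 2 for the iron list, from 3 to 0 for the heme list, from 1 to 0 for hepcidin control and from 3 to 0 for the acute phase list. In d3 males they went from 4 to 0 for the heme list, from 5 to 1 for zinc and copper and from 5 to 1 for the acute phase list. The share of all genes called fell along with them, from 11.7% to 4.04% in WT females and from 19.5% to 8.18% in d3 males. Of 13 tested glucocorticoid response genes, 2 rose in WT males, 1 rose and 1 fell in WT females, 2 rose in d3 males and 0 were called in d3 females. The clock gene Per1 rose in WT males (2.12 ± 0.33), WT females (1.47 ± 0.33) and d3 males (0.90 ± 0.33, adjusted p = 0.0497).

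**Figure D5:**
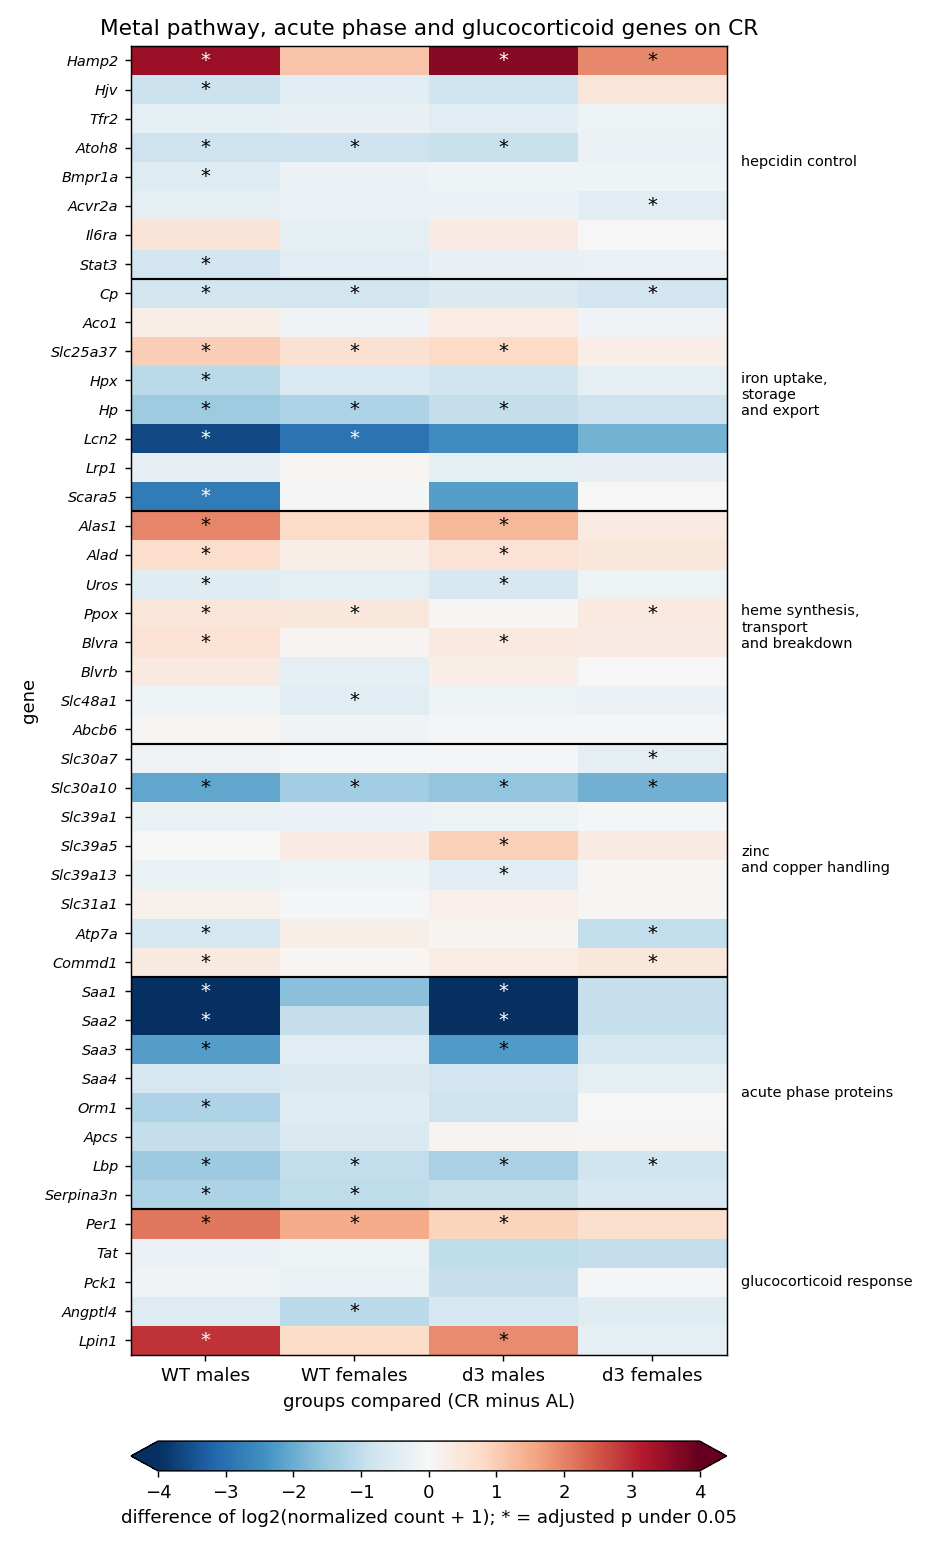
Difference of log2(normalized count + 1) on CR (columns, 4 groups of mice) for the named genes of 6 lists (rows); red is higher and blue lower on CR, colours are capped at 4, and stars mark an adjusted p under 0.05. Slc30a10 and Lbp have a star in all 4 columns, and Hamp2 is red in all 4 with a star in 3.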

How the data were processed

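Liver RNA-seq of 40 mice was analysed. The authors deposited a table of normalized signal, read counts per gene divided by a library factor, and a table of their own comparisons with log2 fold changes and p-values. Per the submitters' processing notes, FastQC, MultiQC, Trimmomatic, kallisto, DESeq2 and the build GRCm38 were used, with versions, settings and order not given in the sources used. Kallisto shares reads among similar transcripts by estimation, which makes paralogs and pseudogene copies uncertain. The values of the deposited table were whole reads after rescaling for 100% of values (tolerance 0.01), and 5 libraries had a factor within 0.02 of 1.

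Of 17839 gene rows, 115 repeats were dropped, which left 17724 genes, and 13776 with a mean of at least 10 were tested. log2(value + 1) was fitted with limma 3.58.1 (R 4.3.3) over all 8 groups, with Benjamini-Hochberg adjustment over all genes tested and a threshold of 0.05; the pseudocount of 1 understates changes of low genes. The labels assign each library to a separate mouse and name no batch. Alternatives were a pseudocount of 10, no filter, another scaling, the compared groups fitted alone, no muscle-rich libraries, the muscle level as a covariate, edgeR 4.0.16 and DESeq2 1.42.0 on the recovered reads, and leaving out each liver. edgeR called 2974 genes for diet in WT males, 1573 in WT females, 2567 in d3 males and 2705 in d3 females, against 2961, 1608, 2686 and 2463 by limma. The fit was tested on simulated data.

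The Mt1 to Mt2 ratio was tested by exact permutation, adjusted over 4 comparisons, since the ratio of the ferritin chains was not analysed. Correlations used deviations from the group mean. From each list the rule named up to 6 genes called in at least 1 diet comparison, by the largest mean change over the 4 comparisons, and up to 2 uncalled genes with the highest level; for each member it named the 3 genes of highest correlation over 40 livers. The members and lists were chosen with earlier results of these data known. Promoter sequences come from RefSeq (GRCm38.p6) and iron responsive elements from GENCODE M21; Python 3.11.15, Biopython 1.88 and matplotlib 3.10.9 were used.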

Additional observations from a re-analysis of the deposited data

Results flagged for a closer look

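Single livers stood far from the other 4 of their group in 7 of 64 cases checked (the 7 members and the Mt1 to Mt2 ratio in 8 groups). The rule was a gap over the group's range above 0.71, both taken on the log2 scale. By chance about 1 in 20 would be flagged. Mt1 in d3 CR males was highest in replicate 4, at 2049 normalized counts. Hfe in WT CR females was highest in replicate 5, at 216. Trf was lowest in d3 CR female replicate 2 (312951), WT AL female replicate 1 (377371) and WT CR female replicate 3 (320647), and highest in WT AL male replicate 4 (1030209). Tfrc in WT CR females was highest in replicate 3, at 1859.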

How the results depend on the processing

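Under the alternatives 367 counts of members called stayed within 1.5 times the count reported and 23 moved, and no called change reversed. Percentages here are the share of all genes called in the same fit. For diet in WT males the count of 1 (21.5%) became 2 with the muscle level as a covariate (24%). It became 3 with edgeR (21.6%) and 3 with DESeq2 (23.1%). Without WT AL male replicates 4 and 5, an alternative chosen after seeing the data, it was 2 (17.7%). Leaving out 1 liver gave 1 to 3, with no share of all genes taken. For diet in d3 males the count of 1 became 2 with the groups fitted alone (21.8%) and 2 with DESeq2 (21.1%). For sex in WT AL mice 0 became 1 with the groups fitted alone (3.3%) and 1 without the muscle-rich libraries (6.79%). Without WT AL male replicates 4 and 5, again chosen after seeing the data, the count there was 3 (4.94%). For sex in WT CR mice 0 became 2 in the fit of the groups alone (2.77%), edgeR (4.14%) and DESeq2 (6.32%). For sex in d3 AL mice 0 became 1 in the fit of the groups alone (5.89%). For sex in d3 CR mice 0 became 1 with a pseudocount of 10 (9.09%), without the muscle-rich libraries (7.12%) and with the covariate (12%). It became 2 with the groups alone (0.726%), edgeR (9.63%) and DESeq2 (12.3%). For genotype in AL males 0 became 2 with DESeq2 (0.379%) and 0 to 1 on leaving out a liver. For diet by sex in WT mice 0 became 1 with DESeq2 (1.16%). The CR minus AL difference of the log2 Mt1 to Mt2 ratio was 0.58 to 1.02 in WT males on leaving out a liver. It was 1.17 to 1.45 in d3 males. Without the muscle-rich libraries this difference was 1.08 in d3 males and -0.33 in d3 females. Counts for the lists moved beyond 1.5 times in 31 cases and stayed in 161. The cause was not tested. No paired analysis was possible because the replicate numbers follow record order and name livers without pairing them. The ratio of the ferritin chains was not run. Hfe rests on 114 to 392 reads per library and Mt2 on 14 in 1 liver, which limits their precision.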
